A study of Mus musculus with 8 samples.

Results

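The heat-shock chaperone set held 10 genes chosen by symbol: *Hspa1a*, *Hspa1b*, *Hspa8*, *Hsph1*, *Dnajb1*, *Dnaja1*, *Hsp90aa1*, *Hsp90ab1*, *Hspb1* and *Hsf1*. All 10 had a row among the 37310 genes of the count table, and 9 of them passed the filter on low counts. *Hspa1a* did not pass and is given by its counts alone. Chaperones bind unfolded or newly made proteins and help them to fold. HSP70 proteins work in cycles of ATP binding and release with J-domain proteins, which deliver substrates, and with nucleotide exchange factors, which release ADP, and HSP90 takes over clients such as kinases and steroid receptors. *Hsf1* encodes the transcription factor that switches on the inducible members of the family when unfolded proteins accumulate.

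The cells were NMuMG, a line of normal mouse mammary gland epithelium that undergoes epithelial to mesenchymal transition when exposed to TGF-β. Control cells and cells labelled knockout (KO) for the long noncoding RNA *Lnc-Nr6a1* were profiled by RNA sequencing, each untreated or after 2 h with 10 ng/ml TGF-β1, with 2 libraries in each of the 4 groups. The deletion was made by CRISPR-Cas9 followed by sorting of single cells into clones, and the number of clones behind the KO libraries was not given in the sources used here. The 2 libraries of a group were described as biological replicates, and p-values measure only the spread between these libraries.

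Total counts ran from 4297832 in KO replicate 1 to 13574397 in KO plus TGF-β replicate 2. The locus of the deleted RNA, listed as *Gm13507*, had 3 and 14 counts in control, 25 and 35 in control plus TGF-β, 11 and 7 in KO and 0 in both libraries of KO plus TGF-β. Its counts gave no separation of genotypes without TGF-β, so a direction there is one of libraries labelled KO. The epithelial genes *Krt8*, *Krt18*, *Krt19* and *Cdh1* had at least 1120 counts in every library, whereas *Epcam* had at most 2, *Krt7* at most 14 and *Cldn4* 0 to 162. Markers of leukocytes, of endothelium and of fibroblasts each summed to no more than 5.31 CPM (counts scaled to the TMM-adjusted total of the library) in any library.

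Promoter sequences are shown for 3 members that differ in the motif that HSF1 binds, the heat shock element. Each runs from 250 bases before to 50 bases after a transcription start, is given 5′ to 3′ on the strand of the gene, and was taken from RefSeq on GRCm38.p6. The longer motif searched was GAA, any 2 bases, TTC, any 2 bases and GAA, and the shorter one was GAA, any 2 bases and TTC, on both strands, with matches in capitals.
*Hspa1b*, chr17:34959189-34959488, minus strand: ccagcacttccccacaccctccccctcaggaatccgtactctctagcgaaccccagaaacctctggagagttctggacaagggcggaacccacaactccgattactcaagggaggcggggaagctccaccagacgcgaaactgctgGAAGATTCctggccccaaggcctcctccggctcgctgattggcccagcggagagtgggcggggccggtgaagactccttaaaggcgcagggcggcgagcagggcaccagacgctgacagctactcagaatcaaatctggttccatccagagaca
*Hsph1*, chr5:149636287-149636586, minus strand: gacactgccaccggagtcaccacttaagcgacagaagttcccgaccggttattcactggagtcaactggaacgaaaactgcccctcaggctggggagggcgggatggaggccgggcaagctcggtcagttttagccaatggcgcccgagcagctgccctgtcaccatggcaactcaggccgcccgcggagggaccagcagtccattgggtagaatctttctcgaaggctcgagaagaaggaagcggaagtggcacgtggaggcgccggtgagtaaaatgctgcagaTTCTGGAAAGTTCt
*Dnajb1*, chr8:83607925-83608224, plus strand: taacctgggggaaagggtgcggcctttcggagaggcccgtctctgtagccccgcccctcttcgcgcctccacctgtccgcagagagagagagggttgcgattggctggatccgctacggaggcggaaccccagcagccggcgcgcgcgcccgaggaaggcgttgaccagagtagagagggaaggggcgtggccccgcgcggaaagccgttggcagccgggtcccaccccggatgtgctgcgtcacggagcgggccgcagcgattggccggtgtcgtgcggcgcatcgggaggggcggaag
RefSeq promoters were available here for 6 of the 10 members and gave 10 promoters. The longer motif was found in 198 of all 32851 promoters (0.603%), and among the members in both promoters of *Hsph1* alone, where it lay 36 bases after the start in the promoter printed. The shorter motif, which lies within the longer one, was found in 7.86% of all promoters and in 6 of the 10 member promoters (5 of the 6 members), at 104 bases before the start in *Hspa1a* and *Hspa1b*. The member promoters are not all separate, so their counts hold some sites more than once. Both promoters of *Hsph1* overlap and hold the same site, and *Hspa1a* and *Hspa1b* share the match GAAGATTC at the same place. *Dnajb1* had no match in either of its promoters. CCAAT stood in 7 of the 10 member promoters, against 37.4% of all promoters, and TATAAA in none, against 13.6%. A match describes the letters only.

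The members together took 0.379% to 0.439% of all counts in a library, and *Hsp90ab1* alone made up 68.5% to 78.8% of the counts on the members' own rows. On the scale of CPM per kilobase of exon, with pseudogene copies left out, *Hsp90ab1*, the constitutive cytosolic HSP90, averaged 1005 ± 89.5 (SD, n = 8). The next levels were 92.0 ± 25.8 for *Hsp90aa1*, the inducible cytosolic HSP90, and 89.1 ± 17.1 for *Hspa8*, the constitutive HSP70, and their ranges over the libraries overlapped. This order holds for the genes' own rows and for the exon lengths used. With pseudogene copies added, and not per length, the mean sums were 3042 CPM for *Hsp90ab1*, 2068 for *Hspa8* and 672 for *Hsp90aa1*. The length was the union of all annotated exons of a gene. It was 4156 bases for *Hspa8*, 3931 for *Hsp90aa1* and 7042 for *Hsph1*, against 2394, 3281 and 3802 in the longest coding transcript. The order of genes with close levels depends on this choice, and a ranking by transcript length was not made. *Dnajb1* at 26.4 ± 6.84, *Hsf1* at 20.1 ± 2.84 and *Hsph1* at 17.2 ± 3.85 came next with overlapping ranges, followed by *Dnaja1* at 6.14 ± 1.10. The inducible HSP70 genes and the small heat-shock gene were at the bottom, with 2.38 ± 1.16 for *Hspa1b*, 0.835 ± 0.608 for *Hspb1* and 0.137 ± 0.126 for *Hspa1a*, and the ranges of neighbours among these 3 overlapped.

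**Figure D1:**
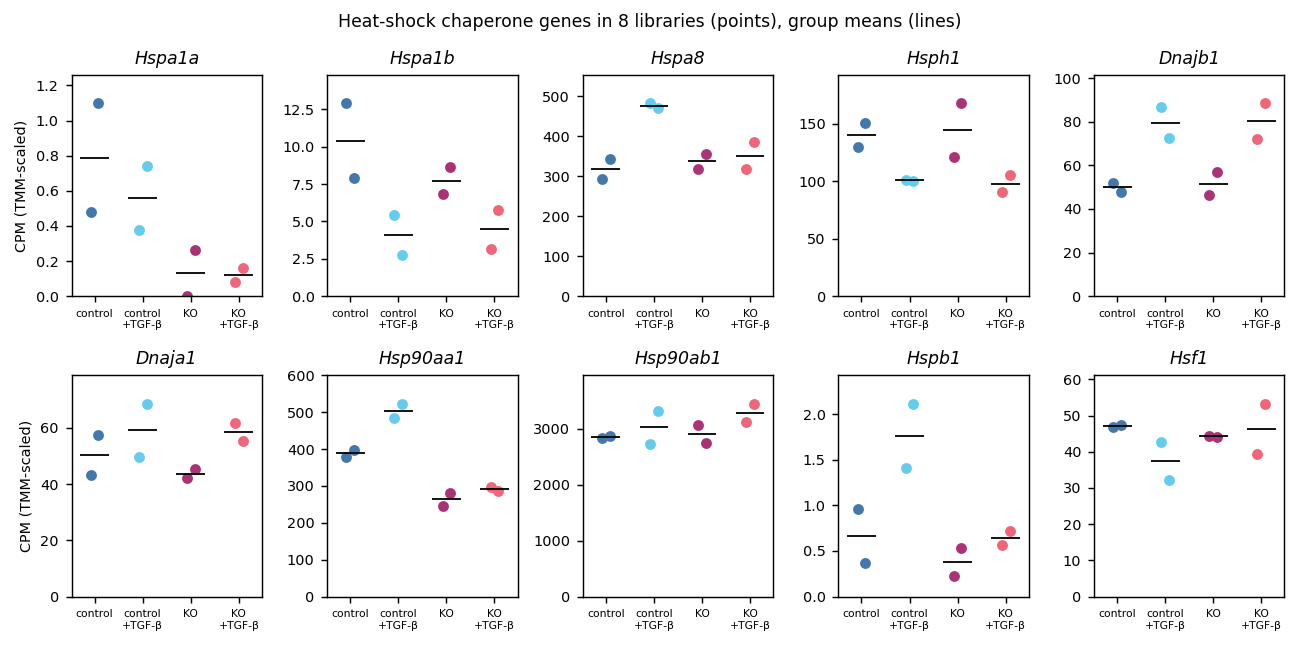
TMM-scaled CPM of each of the 10 genes (vertical axes, linear, from 0) in the 4 groups (horizontal axes), with 1 point per library and a line at the group mean. *Hsp90aa1* is lower in all 4 KO libraries than in all 4 control libraries, and *Dnajb1* is higher in all 4 TGF-β-treated libraries than in all 4 untreated ones.

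Several members share long identical stretches with other loci, which limits how reads could be assigned. In a scan of 75-base windows of the longest coding transcript of each gene against the NCBIM37 genome, 69.3% of the windows of *Hspa8* had an exact copy elsewhere, as did 67.0% of *Hsp90aa1*, 56.1% of *Hspb1*, 55.8% of *Hspa1b*, 54.8% of *Hspa1a* and 20.8% of *Dnaja1*. *Hsp90ab1* had 1.47%, and *Hsph1*, *Dnajb1* and *Hsf1* had none. The copies of *Hspa1a* and *Hspa1b* were mainly each other. Processed pseudogenes carried many counts in the table. The pseudogenes *Gm15459* and *Gm8355* together held 3.70 to 5.27 times the counts of *Hspa8* itself, so that *Hspa8* made up only 15.9% to 21.3% of the sum over the 3 loci. *Hsp90aa1* made up 50.9% to 56.8% of its sum with *Gm12346* and *Gm5844*, and *Dnaja1* 40.4% to 49.5% of its sum with 3 pseudogenes. How the counting treated reads with several matches was not given in the sources used here, so the values of these genes are uncertain. *Dnaja1* also overlaps *Smu1* on the opposite strand by 608 exonic bases, and *Hspa1a* overlaps *Gm20481* on the opposite strand by 552. Without the strand setting of the counting the reads of these overlaps cannot be told apart. *Hspa8* overlaps the small nucleolar RNAs *Snord14c*, *Snord14d* and *Snord14e* by 86, 86 and 90 exonic bases. They lie on its own strand, so a strand setting would not separate them.

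**Figure D2:**
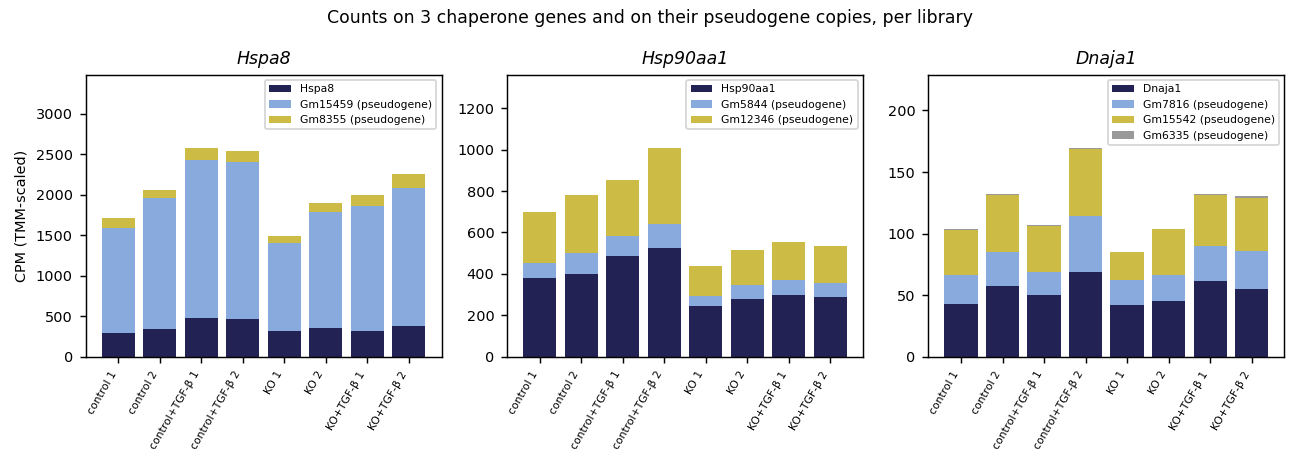
TMM-scaled CPM (vertical axes, linear, stacked bars from 0) of *Hspa8*, *Hsp90aa1* and *Dnaja1* and of their pseudogene copies in each of the 8 libraries (horizontal axes). The dark part of each bar is the gene itself, which is 15.9% to 21.3% of the *Hspa8* bars, 50.9% to 56.8% of the *Hsp90aa1* bars and 40.4% to 49.5% of the *Dnaja1* bars.

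Changes were tested with edgeR's quasi-likelihood test over 13028 genes, and a gene was called when its Benjamini-Hochberg adjusted p was below 0.05 and its log2 fold change was above 0.5 in size. Comparing untreated KO with untreated control cells, none of the 9 tested members was called, and 1.83% of all tested genes were called. By DESeq2 1 member was called there, and 1 member had an unadjusted p below 0.05 in edgeR (14.9% of all genes had), *Hsp90aa1* in both cases. TGF-β in control cells raised 2 of the 9, *Hspa8* and *Dnajb1*, and lowered none, against 9.16% of all genes called and 4.69% called higher, and 5 of the 9 had an unadjusted p below 0.05, against 26.8%. TGF-β in KO cells changed none of the 9 by edgeR, 1 by DESeq2 (*Dnajb1*) and 2 by an unadjusted p below 0.05, against 6.82% of all genes called and 22.7% with such a p. Among TGF-β-treated cells 1 of the 9, *Hsp90aa1*, was lower in KO than in control, against 15% of all genes called and 6.57% called lower, and 3 of the 9 had an unadjusted p below 0.05, against 31.4%. None of the 13028 tested genes was called for a difference between the 2 TGF-β responses (0%), while 1134 genes (8.7%) had an unadjusted p below 0.05 for it, 1 member (*Hspa8*) among them, and DESeq2 called 31 genes. The median log2 fold change of the 9 members was -0.09 in untreated KO against control, 0.23 for TGF-β in control cells, 0.15 for TGF-β in KO cells and -0.02 in treated KO against control, and that of all tested genes was within 0.02 of 0 in each.

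**Figure D3:**
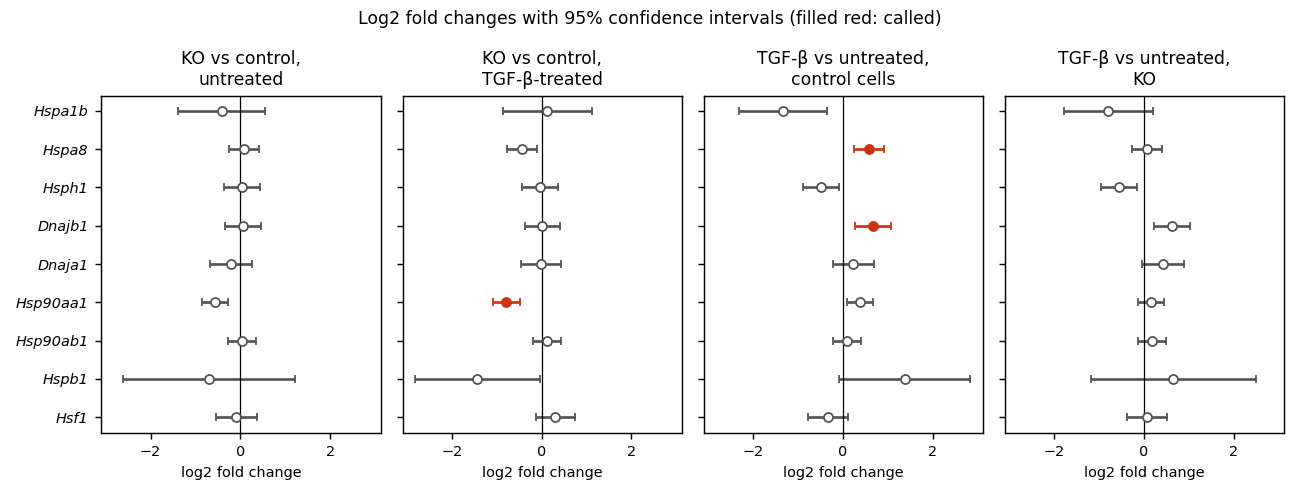
Log2 fold changes (horizontal axes) of the 9 tested members (vertical axis) in 4 comparisons, with 95% confidence intervals from edgeR's quasi-likelihood fit and filled red points for called genes. The 3 called values are *Hsp90aa1* at -0.78 in treated KO against control, and *Hspa8* at 0.59 and *Dnajb1* at 0.67 for TGF-β in control cells.

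*Hsp90aa1* was the 1 member called between genotypes. It stood at 379 and 398 CPM in control, 484 and 523 in control plus TGF-β, 246 and 281 in KO, and 297 and 287 in KO plus TGF-β. All 4 KO libraries were below all 4 control libraries. After TGF-β the KO level was 41.9% lower (log2 fold change -0.78 ± 0.13 SE, 95% interval -1.08 to -0.49, adjusted p = 0.00658 in edgeR's quasi-likelihood test with Benjamini-Hochberg adjustment, n = 2 and 2). In these bulk libraries fewer expressing cells and less RNA per cell cannot be told apart. Without TGF-β the KO level was 32.2% lower, which missed the threshold in edgeR's fit (-0.56 ± 0.13, adjusted p = 0.0765). Adding the 2 pseudogenes left the treated difference at -0.78 (edgeR adjusted p = 0.01), and the pseudogene *Gm12346* was called lower in its own right (-0.84, edgeR adjusted p = 0.0155). The call depended on the libraries in the fit: the adjusted p was 0.0546 in edgeR without KO plus TGF-β replicate 2, and 0.055 when only the 4 treated libraries were fitted, with log2 fold changes of -0.75 and -0.78.

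TGF-β gave *Hsp90aa1* log2 fold changes of 0.37 ± 0.13 in control cells (edgeR adjusted p = 0.104) and 0.15 ± 0.13 in KO cells (0.545), neither of them called. The difference between these responses was -0.22 ± 0.18 (95% interval -0.64 to 0.19, edgeR adjusted p = 0.772).

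*Hsp90ab1*, the other cytosolic HSP90 gene, stood at 2829 and 2866 CPM in control, 2726 and 3314 in control plus TGF-β, 3073 and 2740 in KO and 3120 and 3444 in KO plus TGF-β. Its groups overlapped in 3 of the 4 comparisons and it was called in none. Its log2 fold change between genotypes was 0.03 (95% interval -0.28 to 0.34) without TGF-β and 0.12 (-0.19 to 0.43) with it. The HSP90 pair could also be set side by side within each library. *Hsp90aa1* had 13.4 and 13.9 counts per 100 counts of *Hsp90ab1* in control, 17.8 and 15.8 in control plus TGF-β, 8.0 and 10.3 in KO, and 9.53 and 8.34 in KO plus TGF-β. The highest KO library was below the lowest control library, a description without a test.

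**Figure D4:**
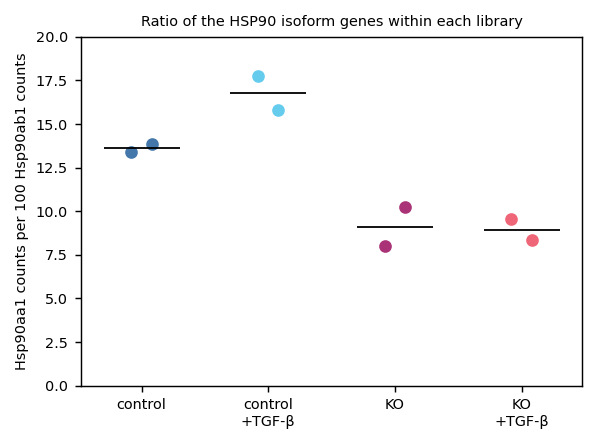
Counts of *Hsp90aa1* per 100 counts of *Hsp90ab1* (vertical axis, linear, from 0) in the 4 groups (horizontal axis), with 1 point per library and a line at the group mean. The 4 KO libraries lie between 8.0 and 10.3, and the 4 control libraries between 13.4 and 17.8.

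*Hspa8*, which folds proteins at all times and uncoats clathrin vesicles, was at 292 and 343 CPM in control and at 481 and 471 in control plus TGF-β. In the KO libraries it was at 318 and 356 without TGF-β and at 318 and 384 with it. On the gene itself the control groups did not overlap, whereas the KO groups did. In control cells TGF-β raised the counts at this locus 1.50-fold (95% interval 1.19 to 1.89, log2 fold change 0.59 ± 0.15, adjusted p = 0.0410 in edgeR's quasi-likelihood test). Adding *Gm15459* and *Gm8355*, which together held more counts than the gene, brought the change to 0.44 and ended the call (edgeR adjusted p = 0.108). The call was also lost without any single library of the 4 control libraries, with edgeR adjusted p from 0.0679 to 0.282, and when only those 4 were fitted (0.102).

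In KO cells the log2 fold change of *Hspa8* for TGF-β was 0.06 ± 0.15 (edgeR adjusted p = 0.859), and 0.32 with the pseudogenes added (0.260), neither of them called. The sums over the 3 loci were 1496 and 1904 CPM in KO and 1996 and 2254 in KO plus TGF-β, groups that did not overlap. The difference between the responses was -0.53 ± 0.21, which did not pass over all genes (unadjusted p = 0.0325, edgeR adjusted p = 0.527), and it was -0.12 when the pseudogenes were added. Treated KO cells had a value of -0.44 ± 0.15 against treated control cells (edgeR adjusted p = 0.0759), or -0.27 with the pseudogenes added (0.267), and their groups did not overlap.

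The inducible HSP70 genes *Hspa1a* and *Hspa1b*, the classical read-out of heat stress, were low throughout. *Hspa1a* had 4 and 9 counts in control, 4 and 7 in control plus TGF-β, 0 and 2 in KO and 1 and 2 in KO plus TGF-β. Counts of 0 to 3 lie at or under the detection limit of 3 counts used here, so no fold is given. *Hspa1b* was at 12.9 and 7.92 CPM in control, 5.43 and 2.75 in control plus TGF-β, 6.82 and 8.63 in KO and 3.18 and 5.80 in KO plus TGF-β. In both genotypes the treated libraries were below the untreated ones. The log2 fold changes were -1.34 ± 0.44 in control cells (edgeR adjusted p = 0.0879) and -0.79 ± 0.44 in KO cells (0.328), neither of them called. The control value passed the threshold without the filter on low counts (edgeR adjusted p = 0.00458) and without control plus TGF-β replicate 1 (-1.93, 0.0411).

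*Hsph1* encodes HSP110, a nucleotide exchange factor for HSP70, and has the longer heat shock motif in its promoter. It stood at 130 and 151 CPM in control, 101 and 100 in control plus TGF-β, 121 and 168 in KO, and 90.5 and 105 in KO plus TGF-β. The treated libraries were below the untreated ones in both genotypes, as for *Hspa1b*. The log2 fold changes of -0.48 ± 0.18 in control cells and -0.57 ± 0.18 in KO cells were not called (edgeR adjusted p = 0.125 and 0.0979). Between genotypes it was at 0.04 without and -0.05 with TGF-β.

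*Dnajb1* encodes the J-domain protein that stimulates HSP70 and is itself heat inducible. Its levels were 52.0 and 47.7 CPM in control, 86.7 and 72.4 in control plus TGF-β, 46.5 and 56.8 in KO, and 71.9 and 88.4 in KO plus TGF-β. In control cells TGF-β raised it 1.60-fold (95% interval 1.21 to 2.10, log2 fold change 0.67 ± 0.18, adjusted p = 0.0453 in edgeR's quasi-likelihood test). In KO cells the value was 0.63 ± 0.18 (edgeR adjusted p = 0.0669, DESeq2 adjusted p = 0.0374), and the difference between the responses was -0.04 ± 0.25 (95% interval -0.61 to 0.52). Both values sat near the threshold, and the call in control cells, fitted with edgeR, was lost without control replicate 1 (adjusted p = 0.203), control replicate 2 (0.221) or control plus TGF-β replicate 1 (0.107), and when only the 4 control libraries were fitted (0.092).

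*Dnaja1*, a J-domain partner of *Hspa8*, was at 43.1 and 57.7 CPM in control, 49.7 and 68.6 in control plus TGF-β, 42.0 and 45.4 in KO and 61.8 and 55.2 in KO plus TGF-β. The treated KO libraries were above the untreated ones, with a log2 fold change of 0.42 ± 0.21 that was not called (edgeR adjusted p = 0.266), and the control groups overlapped.

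*Hspb1*, which encodes a small heat-shock protein that binds actin and unfolded proteins, had 8 and 3 counts in control, 15 and 20 in control plus TGF-β, 1 and 4 in KO, and 7 and 9 in KO plus TGF-β. Its values were the widest of the tested members, at 1.38 ± 0.65 for TGF-β in control cells (edgeR adjusted p = 0.210) and -1.43 ± 0.62 in treated KO against control (0.148). Neither was called. With its pseudogene *Hsp25-ps1* added, the counts in KO were 1 and 4 and those in KO plus TGF-β 16 and 16, with a log2 fold change of 1.63 that was not called (edgeR adjusted p = 0.197), against 0.65 ± 0.82 for the gene itself.

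*Hsf1*, the regulator, was at 46.7 and 47.4 CPM in control, 42.8 and 32.1 in control plus TGF-β, 44.5 and 44.1 in KO and 39.5 and 53.3 in KO plus TGF-β. It was called in no comparison, and its log2 fold changes in the 4 comparisons of groups ran from -0.33 ± 0.20 for TGF-β in control cells to 0.31 ± 0.20 in treated KO against control. Groups that do not overlap were common in this design of 2 against 2. Over the members they were counted for 2 of 9 in untreated KO against control, where 51.9% of all genes did not overlap, for 7 of 9 for TGF-β in control cells (53.7%), for 7 of 9 for TGF-β in KO cells (56.7%) and for 3 of 9 in treated KO against control (55.9%).

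The members did not move as 1 group. Across the 8 libraries the correlations of log2 CPM between pairs of the 9 tested members ran from r = -0.81 to 0.81, with 17 positive and 19 negative of 36 pairs, and the libraries share treatment and genotype. The genes whose log2 CPM was most like the mean profile of the members over these libraries were *Senp5* (Pearson's r = 0.967), *Crb2* (0.954), *Zfp955b* (0.950), *Blzf1* (0.940) and *Nufip1* (0.937), as a description over 8 libraries.

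Other chaperones were compared by list. Among the cochaperones and other cytosolic partners of HSP70 and HSP90, 29 of 31 genes were tested. In treated KO against control cells 3 of the 29 were higher and 7 lower, where 15% of all genes were called and 6.57% called lower, with a median log2 fold change of -0.20 against -0.01 for all genes. The genes called lower included *Stip1*, which bridges HSP70 and HSP90 (-0.63 ± 0.13, edgeR adjusted p = 0.0150), *Ppid*, the HSP90-binding cyclophilin (-0.72 ± 0.16, 0.0199), and *Cacybp* (-0.78 ± 0.17, 0.0156). The other genes called lower were *Ahsa1*, *Bag2*, *Hspa14* and *Hspa4l*, of which *Ahsa1* activates the ATPase of HSP90, and they are named outside the naming rule after their values were seen.

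Those called higher were *Bag3* (0.94 ± 0.16, edgeR adjusted p = 0.00776), which couples HSP70 to autophagy, *Cryab*, a small heat-shock protein (0.97 ± 0.18, 0.00925), and *Cdc37*, the kinase adaptor of HSP90, also named after its value was seen (0.60 ± 0.14, 0.0201). *Bag3*, a known target of HSF1, was at 31.0 and 30.0 CPM in control, 42.6 and 43.6 in control plus TGF-β, 34.3 and 31.2 in KO and 72.5 and 92.3 in KO plus TGF-β. It was the 1 partner gene of 29 called for TGF-β in KO cells (1.33 ± 0.17, edgeR adjusted p = 0.00276), where 6.82% of all genes were called. None of the 29 was called for TGF-β in control cells, where 9.16% of all genes were called. There 12 of 29 had an unadjusted p below 0.05, against 26.8% of all genes. The difference between the responses of *Bag3* was 0.83 ± 0.24 and did not pass over all genes (edgeR adjusted p = 0.449). *Ppid* was the 1 partner gene of 29 called in untreated KO against control (-0.79 ± 0.17, edgeR adjusted p = 0.0492), where 1.83% of all genes were called.

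The cytosolic chaperonin and prefoldin, which fold actin and tubulin, had 13 of 14 genes tested. For TGF-β in control cells all 13 had positive values, against 51.4% of all genes, with a median of 0.38, and 3 were called higher, against 4.69% of all genes: *Pfdn4* (0.86 ± 0.21), *Pfdn5* (0.62 ± 0.13) and *Cct5* (0.51 ± 0.12). In treated KO against control cells 1 of the 13 was positive, against 49.1% of all genes, and the median was -0.49. In this comparison 5 were called lower, against 6.57% of all genes, namely *Pfdn4*, *Pfdn5*, *Cct3*, *Cct5* and *Cct6a*, at -0.89 to -0.52. With no filter on low counts *Cct5* and *Cct6a* were at -0.49 and under the fold threshold. *Pfdn5* was at 67.9 CPM in both control libraries, 103 and 106 in control plus TGF-β, 71.8 and 72.3 in KO and 71.3 and 66.5 in KO plus TGF-β. For *Pfdn5* the treated control libraries thus stood above the other 6. These libraries enter both comparisons and the difference between the responses, so the signs of the 3 are not independent, and their group had the widest spread between replicates (median difference of 0.33 in log2 CPM, against 0.20 to 0.22 in the others). For TGF-β in KO cells none of the 13 was called (6.82% of all genes), none had an unadjusted p below 0.05 (22.7% of all genes) and the median was 0.10. In untreated KO against control 10 of the 13 were negative and 3 positive, where 52.0% of all genes were positive, with a median of -0.17. There 9 were lower and 3 higher without overlap of the groups, where 51.9% of all genes did not overlap. None was called (1.83% of all genes), and 2 had an unadjusted p below 0.05 (14.9% of all genes). For the difference between the responses all 13 were negative with a median of -0.26, where 49.98% of all genes were positive, none was called (0% of all genes) and 4 had an unadjusted p below 0.05 (8.7% of all genes).

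Of 15 chaperones and folding enzymes of the endoplasmic reticulum, TGF-β in control cells raised 2, where 4.69% of all genes were called higher, namely *Hspa5*, the HSP70 of this compartment (0.74 ± 0.20, edgeR adjusted p = 0.0486), and *Manf* (0.61 ± 0.15, 0.0378). In KO cells *Hspa5* was at 505 and 603 CPM without TGF-β and 711 and 1062 with it, a log2 fold change of 0.68 ± 0.20 that was not called (edgeR adjusted p = 0.0755). In treated KO against control *Manf* was lower (-0.64 ± 0.15, 0.0228) and *Herpud1*, a factor in the degradation of proteins from the reticulum, was higher (0.52 ± 0.15, 0.0490), where 15% of all genes were called. None of the 15 was called in the other comparisons by edgeR, where 0% to 6.82% of all genes were called. An unadjusted p below 0.05 was found there for at most 2 of the 15, in TGF-β-treated against untreated KO cells, where 22.7% of all genes had one. None of 8 mitochondrial chaperones, and none of the 2 tested genes of 4 on the list of other heat-shock factors and their binding protein, was called in any, with at most 2 and 1 at an unadjusted p below 0.05 in a comparison, where 0% to 15% of all genes were called and 8.7% to 31.4% had such a p. The calls in these lists were also sensitive to single libraries. With only the 4 libraries of the comparison fitted, every call of the list genes that the naming rule chose in treated KO against control (edgeR adjusted p from 0.0565 to 0.142) and for TGF-β in control cells (0.068 to 0.137) was lost. Without KO plus TGF-β replicate 2, these genes lost their calls in treated KO against control, all but *Manf*, with edgeR adjusted p up to 0.203, and each of them but *Bag3* and *Cryab* also lost its call without at least 1 other treated library. The calls of *Hspa5*, *Manf*, *Pfdn4*, *Pfdn5* and *Cct5* for TGF-β in control cells were lost without either untreated control library (edgeR adjusted p from 0.115 to 0.296). Those of *Hspa5*, *Manf*, *Cct5* and *Pfdn4* were also lost without control plus TGF-β replicate 2 (0.0779 to 0.107), and that of *Hspa5* without control plus TGF-β replicate 1 (0.0586) and with RLE size factors (0.0504). The call of *Ppid* in untreated KO against control was lost in edgeR's fit without any 1 of the 4 untreated libraries (adjusted p from 0.142 to 0.397).

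**Figure D5:**
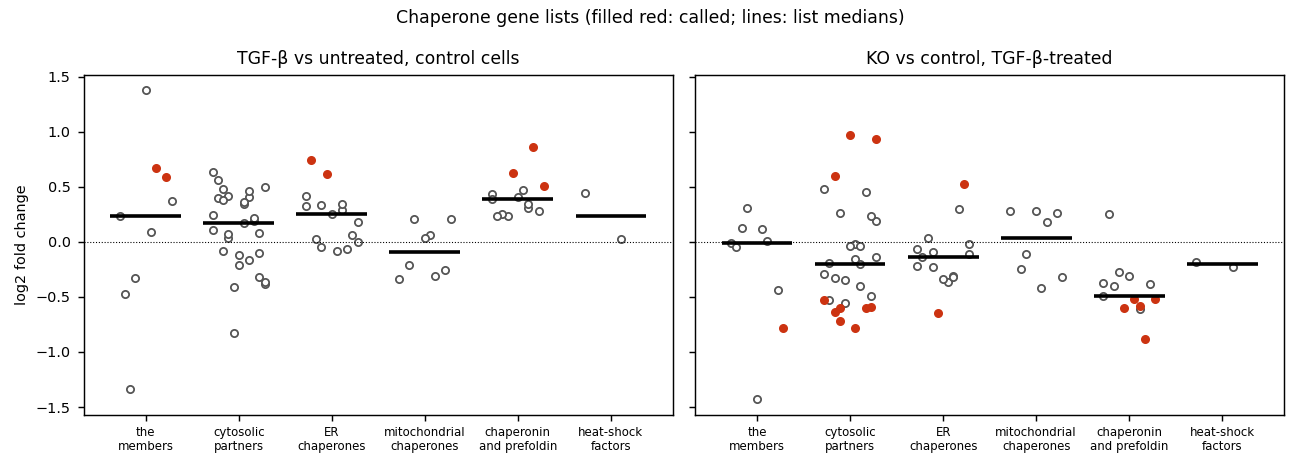
Log2 fold changes (vertical axis) of the tested genes of each list (horizontal axis) for TGF-β in control cells (left) and for treated KO against control (right), with 1 point per gene, filled red where called, and a line at the list median. The chaperonin and prefoldin list has all 13 points above 0 on the left and 1 of 13 above 0 on the right, in comparisons that share the 2 control plus TGF-β libraries.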

How the data were processed

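Counts of reads per gene were deposited by the authors for 8 libraries, 2 in each of 4 groups, as 1 table of raw counts. The study's methods state TRIzol RNA, a stranded mRNA kit, 75-base single reads, Rsubread subjunc alignment and removal of duplicate reads, whereas the labels state a column kit, a stranded total RNA kit, paired reads and, in the submitters' processing notes, HISAT2, limma and mm10; how reads were assigned to genes, and whether by strand, is not given in the sources used here. Identifiers matched GENCODE vM1 (NCBIM37) row by row, and this annotation gave lengths and overlaps.

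Members and lists were chosen with earlier results of these data known. CPM was the count scaled to the library total times its TMM factor. edgeR 4.0.16 (R 4.3.3; TMM, filterByExpr, quasi-likelihood test) was fitted to all 8 libraries and 13028 genes, without a replicate block, with p-values adjusted by Benjamini-Hochberg over all of them and the thresholds of the study (adjusted p 0.05, log2 fold change 0.5; adjusted p alone for the difference between responses). SE is the size of the log2 fold change over the square root of F. The scripts were tested on simulated data. Totals ran from 4297832 to 13574397 counts, and 3 counts were taken as the detection limit, for counting error only. Named in every comparison were the 10 members, and from each list at most 5 called genes with the smallest p. Alternatives were no filter, a mean of at least 10 counts, RLE factors, DESeq2 1.42.0, a replicate block, the 4 libraries of a comparison alone, no fold threshold, *Hspa1a* and *Hspa1b* summed, and each library left out. Pseudogene sums and exchanged numbers were added after the data were seen. No proteins were analysed here.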

Additional observations from a re-analysis of the deposited data

How the results depend on the processing

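The direction and the side of the threshold of the members and of the list genes chosen by the naming rule were kept in 714 of 843 values over the alternatives, 84 lost the call, 7 gained it and 38 changed sign, the last all in values that were not called. *Ahsa1*, *Bag2*, *Hspa14*, *Hspa4l* and *Cdc37* were not run under the alternatives. The number of members called in untreated KO against control went from 0 to 1 (*Hsp90aa1*) with no filter on low counts, with only the 4 libraries of the comparison and with DESeq2. For TGF-β in KO cells it went from 0 to 1 (*Dnajb1*) with no filter and with DESeq2. For TGF-β in control cells it rose from 2 to 3 with no filter (*Hspa1b* added), fell to 1 with the replicate block (*Hspa8* kept) and with the pseudogene sums (*Dnajb1* kept), to 0 with only its 4 libraries, and lay at 0 to 1 when single libraries were left out. In treated KO against control it fell from 1 to 0 with only its 4 libraries and lay at 0 to 1 when single libraries were left out, with 0 without KO plus TGF-β replicate 2. The cause was not tested. A group left with 1 library was assumed to vary like the others. The adjusted p of *Hsp90aa1* in treated KO against control ran over the alternatives from 4.19e-05 to 0.055.

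Deviations from the group means of same-numbered libraries correlated at 0.098, 0.30, -0.0092 and -0.47 in untreated KO against control, TGF-β in control cells, TGF-β in KO cells and treated KO against control. The replicate numbers thus did not pair the libraries in the same way in all comparisons, and the largest values, 0.30 and -0.47, had opposite signs. The block changed the count of called genes from 238 to 150 in untreated KO against control. The block ended 5 calls of named genes (edgeR adjusted p): *Dnajb1* (0.0716), *Manf* (0.0578) and *Cct5* (0.056) for TGF-β in control cells, *Herpud1* in treated KO against control (0.0581) and *Ppid* in untreated KO against control (0.0844). With the numbers of the treated KO libraries exchanged, an alternative chosen after seeing the data, 2809 genes and 1 member were called in treated KO against control, beside 1490 with the numbers as labelled.

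Some values that were not called changed sign. With no filter these were *Hsp90ab1* in untreated KO against control (-0.0067), *Dnaja1* in treated KO against control (0.019) and the difference between responses of *Dnajb1* (0.021). With the block it was *Dnaja1* in treated KO against control (0.0051), and with *Hspa1a* and *Hspa1b* summed it was *Hspa1b* in the same comparison (-0.017). With the pseudogene sums, chosen after seeing the data, these were *Hspa8* in untreated KO against control (-0.15) and the difference between responses of *Hspb1* (0.33). Leaving out single libraries gave ranges of log2 fold changes across 0 as follows. In untreated KO against control they were -0.029 to 0.21 for *Hspa8*, -0.22 to 0.25 for *Hsph1*, -1.54 to 0.13 for *Hspb1*, -0.11 to 0.19 for *Dnajb1*, -0.40 to 0.020 for *Dnaja1* and -0.057 to 0.11 for *Hsp90ab1*. For TGF-β in control cells they were -0.020 to 0.46 for *Dnaja1* and -0.063 to 0.20 for *Hsp90ab1*. For TGF-β in KO cells they were -0.053 to 0.21 for *Hspa8* and -0.13 to 0.29 for *Hsf1*. In treated KO against control they were -0.36 to 0.72 for *Hspa1b*, -0.13 to 0.16 for *Dnajb1*, -0.21 to 0.24 for *Dnaja1* and -0.14 to 0.066 for *Hsph1*. For the difference between responses they were -0.29 to 0.18 for *Hsph1*, -0.17 to 0.13 for *Dnajb1*, -0.032 to 0.46 for *Dnaja1*, -0.0028 to 0.26 for *Hsp90ab1* and -1.56 to 0.12 for *Hspb1*.

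Over all genes, the number called went from 238, 1194 and 889 to 756, 2021 and 1832 with no filter in untreated KO against control, TGF-β in control cells and TGF-β in KO cells, and the number for the difference between responses from 0 to 211. With only the 4 libraries of a comparison it was 804 in untreated KO against control, 470 for TGF-β in control cells and, from 1959, 410 in treated KO against control. With DESeq2 it was 408 in untreated KO against control and 31 for the difference between responses. Single libraries left out gave 42 to 53 in untreated KO against control, 145 to 1484 for TGF-β in control cells, 136 to 801 for TGF-β in KO cells, 477 to 2762 in treated KO against control and 0 to 6 for the difference between responses. Depth limits *Hspa1a* and *Hspb1*, whose highest counts in a library were 9 and 20.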
